A study of Rattus norvegicus with 9 samples.

Results

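Interleukins and their receptors were followed in the spinal cord of rats. The members were the rows of the count table that were typed as protein coding and whose symbol began with Il and a digit, leaving out Il1b, Il18, Il1rn, Il7r and Il2rb. There were 72 such genes among the 30507 rows of the table, of which 34 encode ligands and 38 were counted as receptors, receptor chains or soluble binding proteins. The 38 include Il13ra1-ps1, which carries the name of a pseudogene. RNA-seq was performed on unsorted tissue of the spinal cord segments that span the injury level, from wild-type female Sprague-Dawley rats, 8 weeks old at purchase, with 3 rats in each group and 1 library per rat. All tissue was taken at 35 days post-injury (dpi) or after the matching surgery. The Sham group had the laminectomy without contusion, although the labels describe these rats as untreated. The SCI group had a contusion at the level of T10, with an electrode plug on the neck and no electrode. The SCI + SCS group had the same contusion, an epidural electrode below the injury and 10 kHz high-frequency spinal cord stimulation. Rats with an electrode and no stimulation were not analysed here, so electrode implantation and stimulation cannot be told apart, and each group stands for a single time point and sex.

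Interleukins are secreted proteins through which leukocytes, glia, fibroblasts and neurons signal to each other. Most bind a private receptor chain that pairs with a shared chain, such as gp130, the common gamma chain, the common beta chain or the IL-1 receptor accessory protein, and signal through JAK kinases and STAT factors. The IL-1 and IL-17 receptors instead recruit the adaptors Myd88 and Act1. Several receptors of the family are decoys or soluble binding proteins that hold a ligand without passing on its signal. In the injured cord, interleukins are known for their part in the recruitment and activation of microglia and infiltrating leukocytes.

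The libraries held 62844376 to 88358570 counts, of which the 72 genes together took 0.0382 to 0.0984%. A count of 3, taken as the smallest level the depth can show, equalled 0.034 to 0.0477 CPM (counts as a share of the library total), and the CPM of genes were also TMM-normalized. The libraries SCI 1 and SCI 3 stood apart by skeletal muscle genes, whose 16 measured markers summed to 4731 and 1487 CPM against 60.6 to 165 CPM in the other 7 libraries. Leaving the muscle and adipocyte genes out of the table left the number of members called at 21, 0 and 4 in the 3 comparisons described here. This took out the marker rows only, so it cannot show whether the members hold reads from such tissue in SCI 1 and SCI 3. The 5 oligodendrocyte and 7 neuron markers fixed for the labelled tissue were measured in all groups.

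In all, 39 of the 72 genes had counts in all 9 libraries, 21 in some of them and 12 in none. Most of the receptor genes were measurable and most of the ligand genes were not. Counts in all libraries were found for 29 of the 38 receptor and binding protein genes and for 10 of the 34 ligand genes. The genes at 0 in every library were Il3, Il5, Il9, Il13, Il22, Il31, Il36a, Il36g, Il36rn, Il1f10, Il5ra and Il22ra1, and each 0 allows a level of up to the 3 counts given above. Il10, the main anti-inflammatory interleukin, had 3 counts in Sham 3, 18 and 7 counts in SCI 1 and SCI 3, and 0 counts in the other 6 libraries. Il4, Il17a and Il2 had no more than 4 counts in any library. Differences in these genes were not detectable at this depth.

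Levels between genes were compared in FPKM, which is per gene length. A few receptors and tissue cytokines held most of the interleukin RNA. In the Sham group, Il11ra1 (the IL-11 receptor chain) stood highest at 23.5 ± 1.91 FPKM (SD, n = 3), followed by Il6st (gp130, the signalling chain shared by the IL-6 family) at 19.6 ± 3.66 FPKM, Il33 (a nuclear alarmin abundant in the central nervous system) at 15.7 ± 3.82 FPKM and Il34 (a ligand of the CSF-1 receptor that sustains microglia) at 14.9 ± 4.16 FPKM. The neighbours Il33 and Il34 in this order did not differ beyond their spread. With Il3ra and Il17ra, these genes made up 69.6% of the summed FPKM of the family in the Sham group. In the SCI libraries the leading 6 genes held 69.8%, and Il18bp stood among them at 18.8 ± 3.58 FPKM in place of Il17ra. The summed FPKM of all members was 104, 132.5 and 153.2 in the Sham libraries, 204.5, 257.1 and 268.6 in the SCI libraries, and 220.1, 189 and 187.9 in the SCI + SCS libraries. The sums of the SCI + SCS libraries lay above all Sham libraries and overlapped with those of the SCI group.

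**Figure D1:**
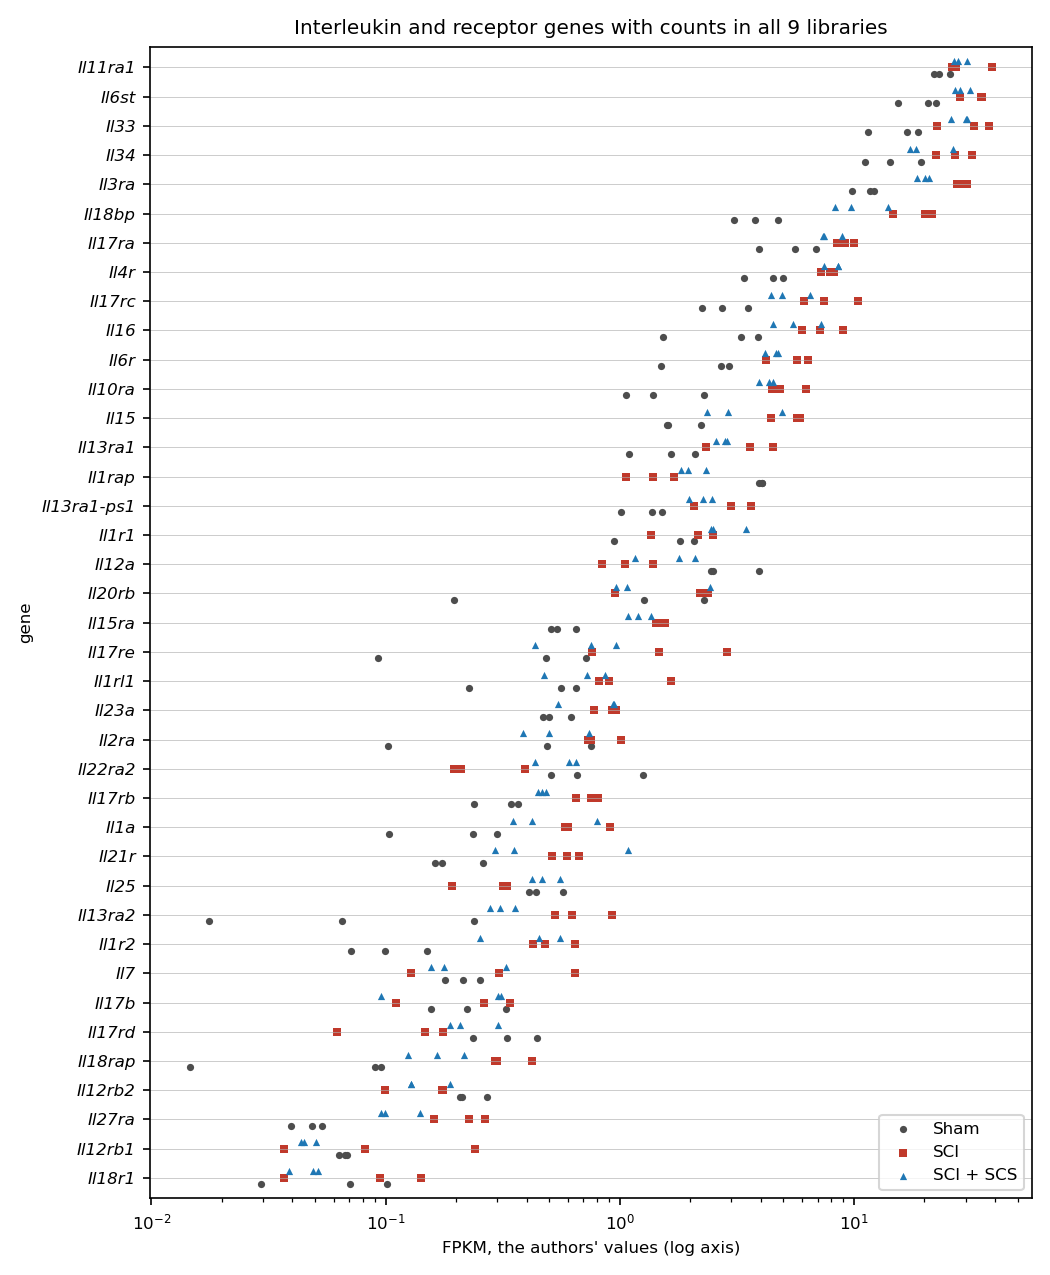
FPKM of the 39 interleukin and receptor genes with counts in all 9 libraries, on a log axis, with 1 point per library (circles, Sham; squares, SCI; triangles, SCI + SCS). Il11ra1, Il6st, Il33, Il34 and Il3ra are the highest 5 genes in each group by their mean, and Il18bp moves from a mean of 3.87 FPKM in the Sham group to 18.8 FPKM in the SCI group. The points of Il21r are shown although its FPKM did not follow its counts.

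The FPKM of 1 gene did not follow its counts. The ratio of FPKM to counts, scaled to the median of each library, differed 4.63-fold between the lowest and the highest library for Il21r. For the other 38 of these 39 genes, it differed by at most 1.25-fold, with a median of 1.04. For Il21r, levels were therefore taken from the counts alone.

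The first comparison asked which interleukin genes differed between the injured and the uninjured cord at 35 dpi. Compared with the Sham group, the SCI group had higher levels of 17 members and lower levels of 4, at |log2FC| over 1 and an adjusted p under 0.05 (edgeR, quasi-likelihood test, adjusted over all genes by Benjamini and Hochberg). The 17 included 14 receptor or binding protein genes (Il13ra2, Il18rap, Il18bp, Il1r2, Il21r, Il27ra, Il10ra, Il17rc, Il3ra, Il15ra, Il17rb, Il6r, Il13ra1 and Il13ra1-ps1) and the ligand genes Il1a, Il15 and Il16. Il13ra1 and Il13ra1-ps1 may share reads, and the counts and shares given here take them as separate genes. The 4 lower genes were Il22ra2, Il1rap, Il17rd and Il12a. Only 45 members passed the filter on low counts and were tested, of which 37.8% were called higher and 8.9% lower. Among all 17822 genes tested, 13.4% were called higher and 13.6% lower. The median log2FC was 0.89 over the 45 members and 0.02 over all genes tested. A gene that passed the filter through its level in 1 group alone had to differ, so these counts are given as a description.

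**Figure D2:**
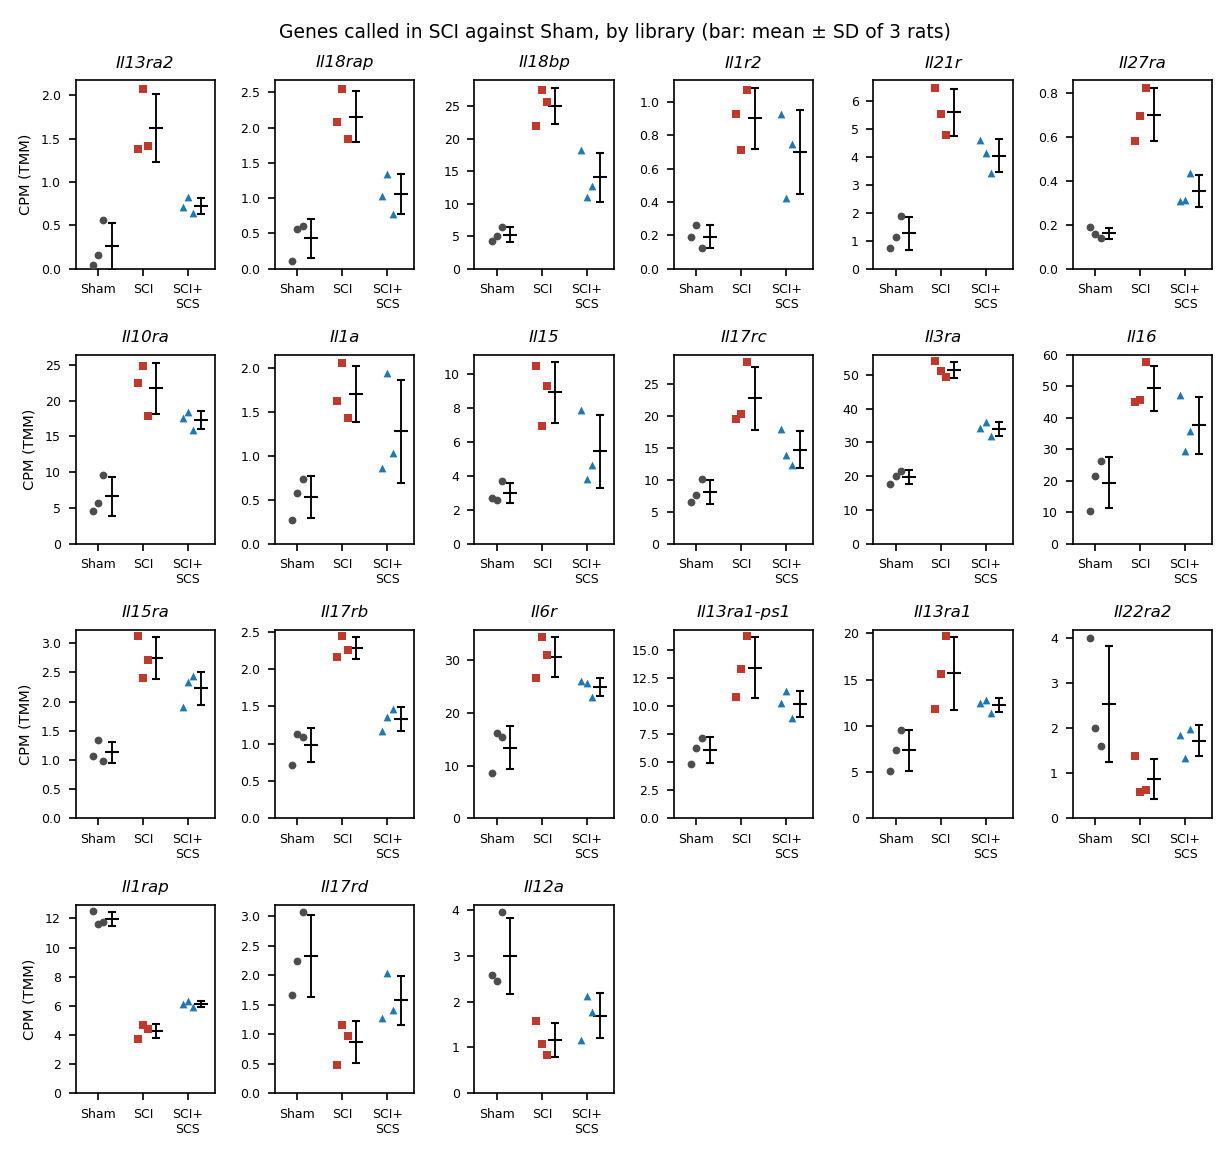
TMM-normalized CPM of the 21 genes called in SCI against Sham, with 1 point per library and the mean ± SD of 3 rats beside each group; every vertical axis starts at 0. The first 17 panels are the genes called higher and the last 4 those called lower (Il22ra2, Il1rap, Il17rd and Il12a), and the libraries of the SCI and Sham groups do not overlap in any of the 21.

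Soluble inhibitors and decoy receptors stood among the largest differences (this grouping was chosen after the values were seen). Il18bp, the secreted inhibitor of IL-18 (chr1:156372883-156374963, minus strand, mRatBN7.2), had 4.26, 4.95 and 6.45 CPM in the Sham libraries, 22, 27.4 and 25.6 CPM in the SCI libraries and 18.3, 11 and 12.8 CPM in the SCI + SCS libraries. All SCI libraries lay above all others, and the SCI + SCS libraries lay between the other groups. Its log2FC in SCI against Sham was 2.24 ± 0.19 (SE), with an adjusted p of 0.0011 in edgeR. Il1r2, the decoy receptor that binds IL-1 without signalling, had 0.188, 0.261 and 0.127 CPM in the Sham libraries, 0.925, 0.709 and 1.07 CPM in the SCI libraries and 0.926, 0.425 and 0.751 CPM in the SCI + SCS libraries. It was low in every Sham library, with a log2FC of 2.20 ± 0.41 (edgeR adjusted p = 0.00606), and the injured groups overlapped. Il13ra2, a high-affinity IL-13 receptor with a short cytoplasmic tail that is often called a decoy, had 0.047, 0.159 and 0.564 CPM in the Sham libraries, 1.38, 2.07 and 1.42 CPM in the SCI libraries and 0.716, 0.823 and 0.641 CPM in the SCI + SCS libraries. The 3 groups did not overlap, and the log2FC of SCI against Sham was 2.62 ± 0.77 (edgeR adjusted p = 0.0294). The call of Il13ra2 was lost without Sham 2, SCI 1, SCI 2 or SCI 3, with adjusted p-values of 0.0984, 0.0556, 0.0829 and 0.066 in edgeR, and its log2FC ran from 2.15 without Sham 1 to 3.88 without Sham 3. Il22ra2, the soluble IL-22 binding protein, went the other way, with 4.01, 2.01 and 1.6 CPM in the Sham libraries, 1.38, 0.596 and 0.637 CPM in the SCI libraries and 1.85, 1.33 and 1.99 CPM in the SCI + SCS libraries. Its log2FC of -1.56 ± 0.51 (edgeR adjusted p = 0.0408) fell to -1.06 with an adjusted p of 0.117 without Sham 1, and the call was also lost without Sham 2, SCI 2 or SCI 3 (0.0696, 0.115 and 0.122). The 4 genes therefore did not share a direction.

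Within the IL-1 receptor family, 8 of 10 genes were tested, of which Il18bp, Il1r2 and Il18rap were higher and Il1rap was lower. Il1rap encodes the accessory chain that the receptors for IL-1, IL-33 and IL-36 share (chr11:74070304-74199530, minus strand, mRatBN7.2). It had 12.5, 11.6 and 11.7 CPM in the Sham libraries, 3.71, 4.7 and 4.41 CPM in the SCI libraries and 6.12, 6.34 and 5.9 CPM in the SCI + SCS libraries. The 3 groups did not overlap, and the spread within each was small. The log2FC of SCI against Sham was -1.50 ± 0.15 (edgeR adjusted p = 0.00143). Il18rap, the accessory chain of the IL-18 receptor, had 0.11, 0.568 and 0.61 CPM in the Sham libraries, 2.08, 2.55 and 1.84 CPM in the SCI libraries and 1.04, 1.35 and 0.782 CPM in the SCI + SCS libraries. The groups were again separate, and the log2FC of 2.30 ± 0.58 (edgeR adjusted p = 0.0181) lost its call without SCI 2 (adjusted p = 0.0545). Il18r1, the partner chain that binds IL-18, was low in all groups, at 0.145 to 0.609 CPM in the SCI libraries and 0.11 to 0.375 CPM in the Sham libraries, and was not called (log2FC 0.52 ± 0.66, edgeR adjusted p = 0.543). Il1r1, the signalling IL-1 receptor, was also not called (log2FC 0.29 ± 0.31, edgeR adjusted p = 0.455). Of the IL-1 family ligands, Il1a had 0.266, 0.579 and 0.736 CPM in the Sham libraries, 1.62, 2.06 and 1.43 CPM in the SCI libraries and 0.856, 1.94 and 1.03 CPM in the SCI + SCS libraries. The SCI libraries lay above the Sham libraries, with a log2FC of 1.67 ± 0.42 (edgeR adjusted p = 0.017) whose call was lost without Sham 2 or SCI 2 (0.053 and 0.0554). Il33 had 37.3, 51.9 and 57.8 CPM in the Sham libraries, 78.5, 112 and 95.3 CPM in the SCI libraries and 91.5, 79.4 and 90.7 CPM in the SCI + SCS libraries, and its log2FC of 0.94 ± 0.20 passed the adjusted p (0.00919, edgeR) but not the fold threshold, which it passed without Sham 3 (1.07) or SCI 1 (1.06).

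The IL-15 pair was called on both sides. Il15, a cytokine that sustains NK cells and memory T cells (chr19:25640251-25706820, plus strand, mRatBN7.2), had 2.69, 2.55 and 3.68 CPM in the Sham libraries, 10.4, 6.94 and 9.29 CPM in the SCI libraries and 7.86, 3.8 and 4.65 CPM in the SCI + SCS libraries. Il15ra, the chain that presents IL-15 to neighbouring cells, had 1.06, 1.34 and 0.989 CPM in the Sham libraries, 3.12, 2.4 and 2.71 CPM in the SCI libraries and 1.91, 2.34 and 2.44 CPM in the SCI + SCS libraries. For both genes the SCI libraries lay above all Sham libraries, and the SCI and SCI + SCS libraries overlapped. The log2FC in SCI against Sham was 1.56 ± 0.23 for Il15 and 1.26 ± 0.24 for Il15ra (edgeR adjusted p = 0.00307 and 0.00699). Il21r, the IL-21 receptor of lymphocytes and macrophages, had 0.752, 1.15 and 1.9 CPM in the Sham libraries, 6.47, 5.53 and 4.78 CPM in the SCI libraries and 4.6, 4.13 and 3.41 CPM in the SCI + SCS libraries, with no overlap between the 3 groups (log2FC 2.12 ± 0.36, edgeR adjusted p = 0.00449 in SCI against Sham). Il4r, the IL-4 receptor chain, was not called, with a log2FC of 0.84 ± 0.14 that passed the adjusted p (0.00454, edgeR) but not the fold threshold. Its partner in the IL-13 receptor, Il13ra1, had 5.07, 7.38 and 9.57 CPM in the Sham libraries, 11.8, 15.6 and 19.6 CPM in the SCI libraries and 12.4, 12.8 and 11.4 CPM in the SCI + SCS libraries. Its log2FC of 1.08 ± 0.28 (edgeR adjusted p = 0.0194) lay near the threshold, and the call was lost without Sham 1, Sham 2, SCI 2 or SCI 3 (log2FC 0.87 to 1.07). The row Il13ra1-ps1 carries the name of a pseudogene of Il13ra1 and may share reads with it. It had 4.86, 6.28 and 7.13 CPM in the Sham libraries, 10.8, 13.3 and 16.2 CPM in the SCI libraries and 10.3, 11.3 and 9 CPM in the SCI + SCS libraries. Its log2FC of 1.13 ± 0.21 (edgeR adjusted p = 0.00641) is uncertain, and it fell below the fold threshold without Sham 1 (0.99) or SCI 3 (0.96).

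For 55 of the 72 genes, RefSeq (build GRCr8) gave a promoter from 250 bases before to 50 bases after the gene start. The letters TTCNNNGAA, as bound by STAT factors, were searched on both strands, as were the letters GAGGAA, as in sites of the myeloid factor PU.1. The former were in 10.9% of the 55 promoters, in 0 of the 13 promoters of genes called higher in SCI against Sham and in 8.7% of all 27457 promoters. GAGGAA was in 30.9% of the 55 promoters, in 4 of the 13 promoters of genes called higher in the SCI group (Il15, Il15ra, Il1a and Il6r) and in 27.5% of all promoters. Neither was in the 3 promoters of genes called lower. Over the 55 promoters both shares lay near those of all promoters. The promoters of the IL-15 pair are shown because ligand and receptor were both called higher, and those of Il18bp and Il1rap because these genes had the smallest adjusted p-values among the inhibitors and among the lower genes. Capitals mark GAGGAA, or TTCCTC where it lies on the other strand. The windows are chr19:42544456-42544755 (plus strand), chr17:71741604-71741903 (minus), chr1:165786906-165787205 (minus) and chr11:87704293-87704592 (minus) of GRCr8.
Il15: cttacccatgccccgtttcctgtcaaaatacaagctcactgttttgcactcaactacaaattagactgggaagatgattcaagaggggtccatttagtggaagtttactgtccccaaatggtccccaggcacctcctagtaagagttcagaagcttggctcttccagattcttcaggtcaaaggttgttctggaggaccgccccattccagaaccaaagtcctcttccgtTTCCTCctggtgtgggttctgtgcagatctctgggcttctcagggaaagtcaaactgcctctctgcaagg
Il15ra: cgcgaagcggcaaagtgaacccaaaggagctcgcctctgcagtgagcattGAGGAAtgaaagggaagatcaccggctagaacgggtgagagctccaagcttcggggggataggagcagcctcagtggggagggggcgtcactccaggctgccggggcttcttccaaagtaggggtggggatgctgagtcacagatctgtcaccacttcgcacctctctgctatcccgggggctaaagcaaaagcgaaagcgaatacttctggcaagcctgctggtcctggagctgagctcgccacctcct
Il18bp: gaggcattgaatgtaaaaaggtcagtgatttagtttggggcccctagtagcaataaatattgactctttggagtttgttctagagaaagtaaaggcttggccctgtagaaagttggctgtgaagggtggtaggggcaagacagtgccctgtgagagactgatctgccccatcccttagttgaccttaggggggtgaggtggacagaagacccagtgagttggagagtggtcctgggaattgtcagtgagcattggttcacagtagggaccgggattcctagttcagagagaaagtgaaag
Il1rap: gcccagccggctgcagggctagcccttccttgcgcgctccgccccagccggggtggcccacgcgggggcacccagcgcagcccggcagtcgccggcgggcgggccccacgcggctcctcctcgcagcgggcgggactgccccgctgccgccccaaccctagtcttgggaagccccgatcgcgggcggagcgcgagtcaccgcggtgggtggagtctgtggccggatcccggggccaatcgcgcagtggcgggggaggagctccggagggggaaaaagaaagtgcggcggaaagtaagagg
The promoter of Il1rap was rich in G and C (75.3%), against 48.7% for Il18bp, 49.3% for Il15, 59.3% for Il15ra and a median of 52.3% over all promoters. Neither motif was found in the windows of Il18bp and Il1rap.

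Il20ra, a chain of the receptors for IL-19, IL-20 and IL-24, had the lowest log2FC of all members (-3.02 ± 1.24) but was not called (edgeR adjusted p = 0.0827), with 48, 29 and 20 counts in the Sham libraries, 12, 0 and 0 in the SCI libraries and 20, 0 and 4 in the SCI + SCS libraries. This value depended on SCI 1, without which the SCI group was at 0, the fitted log2FC, which is then no bound, was -8.06 and Il20ra was called lower (adjusted p = 0.0163), and it was -2.39 without Sham 1. Among the receptors of the IL-3, IL-6, IL-10 and IL-27 families, Il3ra had the smallest adjusted p of all members. Il3ra, the binding chain for IL-3, had 17.6, 20.2 and 21.6 CPM in the Sham libraries, 54.1, 51 and 49.4 CPM in the SCI libraries and 34.3, 36 and 31.8 CPM in the SCI + SCS libraries. The 3 groups were separate, with little spread within each, and the log2FC of SCI against Sham was 1.36 ± 0.11 (edgeR adjusted p = 0.00104), whereas Il3 itself was at 0 in every library. Il10ra, the binding chain of the IL-10 receptor, had 4.53, 5.63 and 9.64 CPM in the Sham libraries, 22.5, 24.9 and 17.9 CPM in the SCI libraries and 17.6, 18.4 and 15.9 CPM in the SCI + SCS libraries (log2FC 1.71 ± 0.30, edgeR adjusted p = 0.00491 in SCI against Sham). Both injured groups lay above the Sham group and overlapped with each other. Il27ra, the receptor chain for IL-27, had 0.188, 0.159 and 0.138 CPM in the Sham libraries, 0.583, 0.695 and 0.825 CPM in the SCI libraries and 0.309, 0.312 and 0.438 CPM in the SCI + SCS libraries, with a log2FC of 2.09 ± 0.36 (edgeR adjusted p = 0.00474) and no overlap between the 3 groups. Il6r, the IL-6 binding chain, had 8.66, 16.2 and 15.4 CPM in the Sham libraries, 26.6, 34.2 and 30.9 CPM in the SCI libraries and 26.1, 25.7 and 23 CPM in the SCI + SCS libraries. Its log2FC was 1.17 ± 0.24 (edgeR adjusted p = 0.00894), and it fell below the fold threshold without Sham 1 (0.94), the lowest Sham library. Il6st, its signalling partner, passed the adjusted p (0.0069, edgeR) with a log2FC of 0.73 ± 0.14, under the fold threshold. Il6 itself was scarce, with 24, 26 and 27 counts in the Sham libraries, 9, 8 and 17 in the SCI libraries and 14, 4 and 0 in the SCI + SCS libraries. Its counts were lower in every injured library, but the log2FC of -1.07 ± 0.47 in SCI against Sham did not pass (edgeR adjusted p = 0.0983).

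All 5 IL-17 receptor genes were tested, of which 2 were called higher and 1 lower. Il17rc, which pairs with Il17ra to bind IL-17A and IL-17F, had 6.55, 7.62 and 10.2 CPM in the Sham libraries, 19.5, 20.3 and 28.4 CPM in the SCI libraries and 17.9, 13.8 and 12.3 CPM in the SCI + SCS libraries. Il17rb, the IL-25 receptor chain, had 0.72, 1.14 and 1.09 CPM in the Sham libraries, 2.15, 2.44 and 2.26 CPM in the SCI libraries and 1.16, 1.36 and 1.47 CPM in the SCI + SCS libraries. The 3 groups were separate for both genes, with a log2FC in SCI against Sham of 1.47 ± 0.22 for Il17rc and 1.20 ± 0.27 for Il17rb (edgeR adjusted p = 0.00311 and 0.0112). Il17rd, a receptor of this family also known as an inhibitor of FGF signalling, had 1.68, 2.24 and 3.07 CPM in the Sham libraries, 0.482, 1.16 and 0.97 CPM in the SCI libraries and 1.28, 2.04 and 1.41 CPM in the SCI + SCS libraries. It was lower in all SCI libraries (log2FC -1.43 ± 0.41, edgeR adjusted p = 0.0265), and the call was lost without Sham 2, Sham 3 or SCI 3 (0.0668, 0.0743 and 0.0656). Il17re, the IL-17C receptor chain, had 0.313, 1.54 and 2.37 CPM in the Sham libraries, 2.76, 4.6 and 8.93 CPM in the SCI libraries and 3.06, 1.39 and 2.39 CPM in the SCI + SCS libraries. It spread widely within each group and was not called in the SCI group (log2FC 1.92 ± 0.74, edgeR adjusted p = 0.0679), although DESeq2 called it (adjusted p = 0.0114). Il17ra, the shared chain, had a log2FC of 0.74 ± 0.19 (edgeR adjusted p = 0.0186), under the fold threshold.

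Of the remaining ligands, Il16, a chemoattractant cytokine for CD4+ cells, had 10.5, 21.5 and 26.2 CPM in the Sham libraries, 45.1, 45.5 and 57.7 CPM in the SCI libraries and 47.4, 29.6 and 36 CPM in the SCI + SCS libraries. Its log2FC in SCI against Sham was 1.33 ± 0.32 (edgeR adjusted p = 0.0145), and the call was lost without SCI 3 (0.0524). Il12a, the p35 chain of IL-12, had 2.58, 2.44 and 3.96 CPM in the Sham libraries, 1.57, 1.08 and 0.839 CPM in the SCI libraries and 1.16, 2.13 and 1.78 CPM in the SCI + SCS libraries. It was lower in every SCI library than in any Sham library (log2FC -1.38 ± 0.34, edgeR adjusted p = 0.0154), and the adjusted p was 0.0501 without SCI 2. Il34 had 23.4, 28.7 and 40.1 CPM in the Sham libraries, 51.5, 53.3 and 62.8 CPM in the SCI libraries and 53.2, 34.9 and 36.9 CPM in the SCI + SCS libraries, and its log2FC of 0.84 ± 0.20 (edgeR adjusted p = 0.0139) lay under the fold threshold, which it passed without Sham 3 (1.07).

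Markers of several other cell types also differed between the groups, in either direction. The 6 measured T cell markers summed to 0.861 to 1.81 CPM in the Sham libraries, 20.8 to 23.1 CPM in the SCI libraries and 7.36 to 13.8 CPM in the SCI + SCS libraries, and 4 of the 6 tested were called higher in SCI against Sham. The 6 macrophage and monocyte markers summed to 71.5 to 321 CPM, 2065 to 3274 CPM and 1522 to 1577 CPM in the same order, with 5 of 6 called higher. The 5 fibroblast markers summed to 346 to 1461 CPM, 2348 to 3496 CPM and 1473 to 2429 CPM, with 5 of 5 called higher. In the same comparison all 7 neuron markers were called lower, and their sum was 2875 to 5690 CPM in the Sham libraries, 539 to 1735 CPM in the SCI libraries and 1554 to 2394 CPM in the SCI + SCS libraries. The 5 microglia markers summed to 174 to 251 CPM, 264 to 421 CPM and 309 to 362 CPM, with 1 of 5 called higher. The 5 oligodendrocyte markers summed to 56290 to 79910 CPM, 16290 to 31590 CPM and 29070 to 34500 CPM, with 4 of 5 called lower. The 5 neutrophil markers summed to 3.54 to 7.81 CPM, 13.2 to 28.1 CPM and 17.3 to 33.5 CPM, with 3 of 4 tested called higher, and the 7 adipocyte markers to 3.24 to 9.61 CPM, 88.5 to 117 CPM and 27.3 to 43.9 CPM, with 3 of 4 tested called higher. Apart from the skeletal muscle list, the remaining lists had at most 1 marker called or had calls in both directions. The mast cell and basophil sum was 5.04 to 10.1 CPM in the Sham and 5.2 to 10.7 CPM in the SCI libraries, with 0 called of the 1 tested. Of the 5 astrocyte markers 0 were called higher and 1 lower. The 4 dendritic cell markers had 3 higher and 1 lower, and the 4 endothelial markers 1 and 1. The NK cell, B and plasma cell and eosinophil lists had 1 marker called higher each and 0 lower, of 1, 4 and 3 tested. The NK cell sum was 0.094 to 0.334 CPM in the Sham, 1.49 to 1.8 CPM in the SCI and 0.397 to 0.657 CPM in the SCI + SCS libraries. For B and plasma cells it was 1 to 1.84 CPM, 3.31 to 5.21 CPM and 2.45 to 2.81 CPM in the same order. Eosinophil sums overlapped between the Sham (3.05 to 8.39 CPM) and SCI libraries (7.96 to 11.3 CPM). Of all these lists, the adipocyte and NK cell lists had a marker at 0 in every library (Lep and Klrb1). The part of these cells in the differences of the interleukin genes was not tested, and in bulk tissue fewer cells of a type and less RNA per cell cannot be told apart. Sham 1 had the lowest T cell, macrophage and fibroblast sums and the highest neuron sum. It was also the lowest Sham library for every gene called higher in SCI against Sham except Il1r2, Il27ra, Il15 and Il15ra. The same held for some receptors that were not called, such as Il20rb (0.282, 1.75 and 3.23 CPM in the Sham libraries), Il2ra (0.423, 1.86 and 2.96 CPM) and Il17re. Others went the other way and were highest in Sham 1 among the Sham libraries. These were Il20ra (0.752, 0.329 and 0.23 CPM), Il12rb2 (1.13, 0.817 and 0.863 CPM), Il23r, Il12rb1 and Il1rapl1.

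The second comparison asked how the interleukin genes of the injured cord differed with stimulation. In SCI + SCS against SCI, 42 members were tested and 0 were called by edgeR, where 0.00566% of all 17663 genes tested were called (1 gene). At an unadjusted p under 0.05 and |log2FC| over 1, 3 members differed, all lower (Il13ra2, Il18rap and Il17re, 7.1% of those tested). Among all genes, 2.56% were lower and 3.03% higher by that rule, and 0 members were higher. DESeq2 called the same 3 genes lower, of 35 members to which it gave an adjusted p, where it called 2.15% of all genes lower. The log2FC was below 0 for 34 of the 42 members, with a median of -0.35 against -0.01 over all genes tested. The libraries of the groups did not overlap for 11 members that were lower in the SCI + SCS group (26.2% of those tested). Among all genes tested, 13.9% were lower without overlap. Another 4 members were higher without overlap, and the share of all genes that were so was not computed.

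The genes with the smallest p-values in this comparison were receptors and binding proteins. Il3ra was lower in all 3 SCI + SCS libraries, with a log2FC of -0.59 ± 0.08 and the smallest adjusted p of the family (0.0719 in edgeR, 1.73e-06 in DESeq2), at less than the fold threshold. Il18bp had a log2FC of -0.83 ± 0.20 (edgeR adjusted p = 0.091). Without SCI + SCS 1, its highest stimulated library, the log2FC was -1.07 and the adjusted p 0.0499, which made Il18bp the single member called when 1 library was left out. Il13ra2 had a log2FC of -1.15 ± 0.28 (adjusted p = 0.0927 in edgeR and 0.00873 in DESeq2), and Il18rap one of -1.02 ± 0.28 (0.107 and 0.016). Both were lower in every SCI + SCS library than in any SCI library. Il17re had a log2FC of -1.24 ± 0.47 (0.172 and 0.0454), but its groups overlapped and the value was -0.69 without SCI 3. Il17rb and Il17rc, which did not overlap either, had log2FCs of -0.77 ± 0.21 and -0.62 ± 0.20 (edgeR adjusted p = 0.106 and 0.128), and Il27ra had -0.98 ± 0.34 (0.149).

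A few members had values above those of the SCI group. Il1rap had a log2FC of 0.53 ± 0.15 in SCI + SCS against SCI (edgeR adjusted p = 0.116, DESeq2 adjusted p = 0.021), with all 3 libraries above the SCI libraries and below the Sham libraries. Il1r1 had 7.57, 11.8 and 10.4 CPM in the SCI libraries and 16.4, 11.9 and 12 CPM in the SCI + SCS libraries (log2FC 0.45 ± 0.21, edgeR adjusted p = 0.243). Il22ra2 and Il17rd, called lower after injury, had log2FCs of 0.99 ± 0.40 and 0.86 ± 0.39 (edgeR adjusted p = 0.189 and 0.227). Other abundant members had small differences, such as Il33 (-0.12 ± 0.14) and Il4r (0.05 ± 0.09). The comparisons share the SCI libraries, so a value that is high in SCI against Sham and low in SCI + SCS against SCI is not independent in the 2.

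The third comparison set the stimulated injured cord against the uninjured one. In SCI + SCS against Sham, 42 members were tested, 4 were higher (9.5%, against 6.28% of all 17640 genes tested) and 0 were lower (5.44% of all genes). The 4 genes were Il1r2 (log2FC 1.86 ± 0.46, edgeR adjusted p = 0.0255), Il21r (1.68 ± 0.35, 0.0167), Il18bp (1.43 ± 0.25, 0.00997) and Il10ra (1.39 ± 0.28, 0.0143). Single libraries changed this number. Without Sham 2 or without SCI + SCS 1 the number was 2, with Il15ra called in place of lost genes (log2FC 1.12 and 1.08), and without Sham 3 it was 8, adding Il13ra2 (2.75), Il16 (1.23), Il17rc (1.05), Il4r (1.02) and Il6r, whose log2FC lay just over the threshold. Il18bp kept its call whichever library was left out, whereas Il10ra, Il21r and Il1r2 lost theirs without Sham 2 or SCI + SCS 1, Il21r also without SCI + SCS 2, and Il1r2 also without Sham 1, Sham 3 or SCI + SCS 3 (adjusted p of up to 0.0596, 0.0657 and 0.0955 in edgeR). Il1rap stayed under the Sham level, with a log2FC of -0.96 ± 0.11 that passed the adjusted p (0.00403, edgeR) and missed the fold threshold. Il31ra, a receptor chain for IL-31, was not tested, since its 216 counts in Sham 2, 7 and 13 counts in SCI + SCS 2 and 3 and 0 counts elsewhere failed the filter.

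Several members lie side by side in the genome, and neighbours did not all share a call. A run of 6 members of the IL-1 receptor family stands on the plus strand of chr9:42384433-42800959 (mRatBN7.2), a stretch of 416.5 kb, in the order Il1r2, Il1r1, Il1rl2, Il1rl1, Il18r1 and Il18rap. The outermost genes Il1r2 and Il18rap were called higher in SCI against Sham, whereas Il1r1 and Il18r1 were not. Il1rl1, the IL-33 receptor, had a log2FC of 1.22 ± 0.44 and was not called by edgeR (adjusted p = 0.056), although DESeq2 called it (adjusted p = 0.0144). Il1rl2, the IL-36 receptor, had at most 4 counts in any library and was not tested. Il18r1 and Il18rap, whose products form 1 receptor, are 8.24 kb apart. On chromosome 4, Il17re and Il17rc are 797 bases apart on the same strand, and both had positive log2FCs of which that of Il17rc was called.

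**Figure D3:**
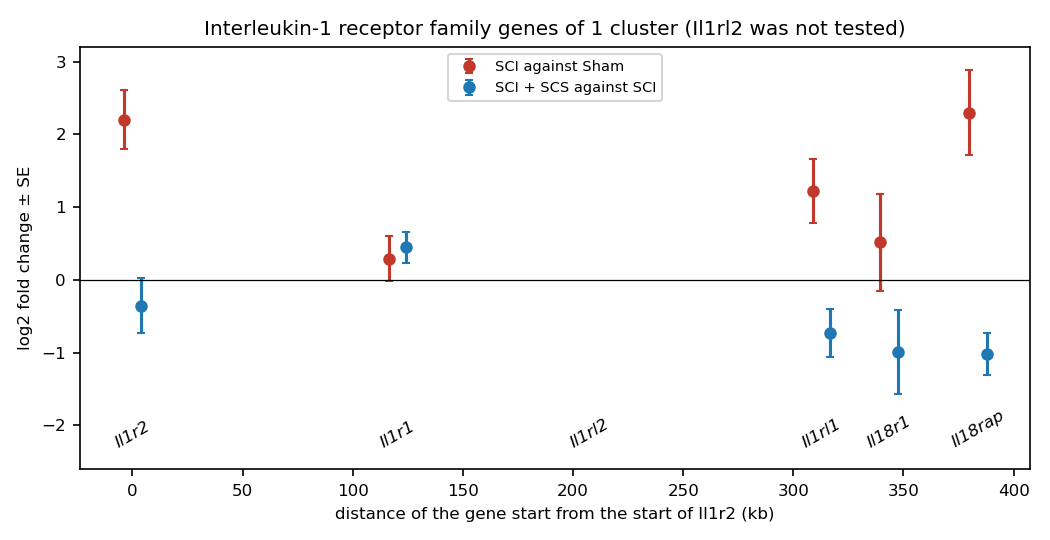
log2FC ± SE from edgeR of the IL-1 receptor family genes of 1 cluster against the distance of each gene start from that of Il1r2 in kb, for SCI against Sham (red) and SCI + SCS against SCI (blue), which share the SCI libraries. The outermost genes, Il1r2 at 2.20 and Il18rap at 2.30, have the largest red values, and Il1r1 at 0.29 lies near 0.

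The partners and downstream genes of the interleukin receptors were taken from a list of 35 genes present in the files, of which 34 were tested. In SCI against Sham 11 were higher and 0 lower (32.4% of those tested, against 13.4% of all genes called higher). Osmr, which pairs with gp130, had 3.59, 6.67 and 7.11 CPM in the Sham libraries, 19.8, 33.9 and 34.1 CPM in the SCI libraries and 22.8, 16.9 and 16.2 CPM in the SCI + SCS libraries (log2FC 2.32 ± 0.33, edgeR adjusted p = 0.0027). Socs3, the feedback inhibitor of gp130 signalling, had 1.8, 3.61 and 7.74 CPM, then 21.8, 23.4 and 36.2 CPM, and then 17.1, 19.5 and 17 CPM in the same order (log2FC 2.61 ± 0.52, edgeR adjusted p = 0.00768). Both injured groups lay above the Sham group for these genes, and the log2FC of Socs3 was 3.29 without Sham 3. The other receptor chains called higher were Csf2ra (log2FC 1.75), Crlf2, a chain of the TSLP receptor (1.60), and Csf1r, the receptor for IL-34 and CSF-1 (1.54). Ebi3, the partner of IL-27 p28, had a log2FC of 1.33. The adaptors and kinases were Myd88 (1.31), Irak4 (1.24) and Traf3ip2, which encodes Act1 of the IL-17 receptors (1.03), and the remaining genes were Socs1 (1.27) and Stat6, the factor downstream of IL-4 and IL-13 (1.24). The call of Stat6 (edgeR adjusted p = 0.0423) was lost without any single library but Sham 3, with a log2FC of 0.89 without Sham 1 and adjusted p-values of 0.0594 to 0.129 without Sham 2, SCI 1, SCI 2 or SCI 3, and Traf3ip2 fell below the fold threshold without Sham 1 (0.99) or SCI 3 (0.96). Crlf2, Osmr, Csf1r, Csf2ra and Socs3 were also called higher in SCI + SCS against Sham (5 of 34, 14.7%, against 6.28% of all genes tested, with 0 lower against 5.44%). In that comparison Socs3 lost its call without Sham 2, SCI + SCS 1, SCI + SCS 2 or SCI + SCS 3 (edgeR adjusted p = 0.0868, 0.072, 0.0694 and 0.0579) and Crlf2 fell below the fold threshold without Sham 1 (0.99). In SCI + SCS against SCI 0 of 34 were called by edgeR, and 1 was lower at an unadjusted p under 0.05 and |log2FC| over 1 (2.9%, near the 2.56% of all genes). That gene was Ebi3, with 3.7, 3.89 and 4.01 CPM in the SCI libraries and 2.41, 1.13 and 1.97 CPM in the SCI + SCS libraries (log2FC -1.06 ± 0.29, adjusted p = 0.105 in edgeR and 0.00848 in DESeq2).

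**Figure D4:**
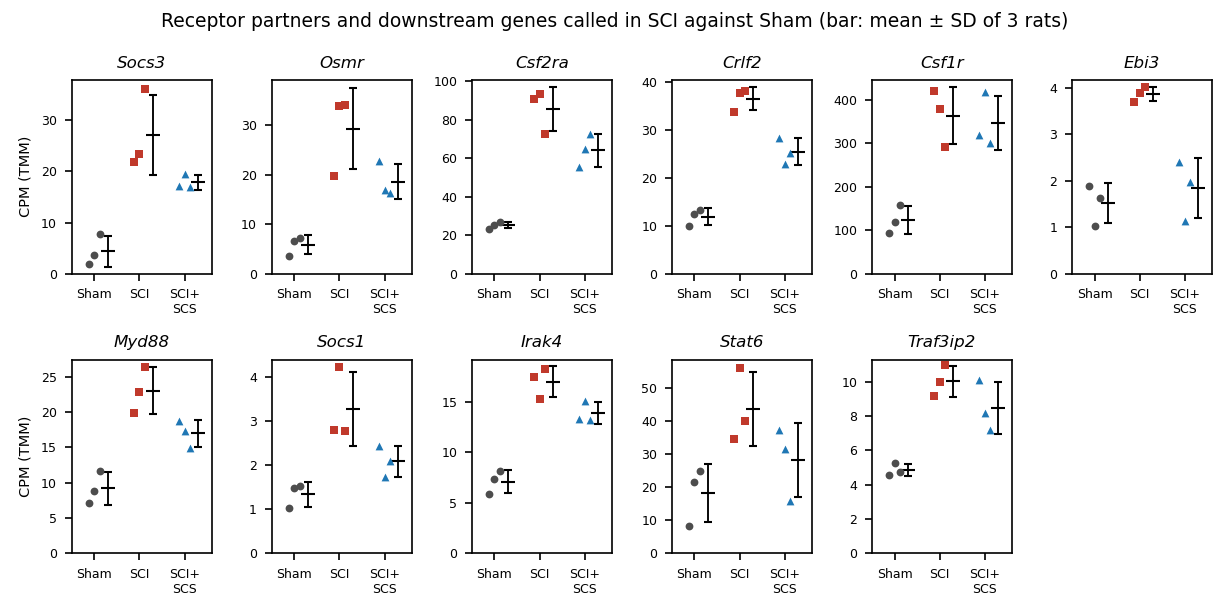
TMM-normalized CPM of the 11 receptor partner and downstream genes called higher in SCI against Sham, with 1 point per library and the mean ± SD of 3 rats beside each group; every vertical axis starts at 0. The SCI libraries lie above all Sham libraries in each panel, and for Ebi3 the SCI + SCS libraries lie below all SCI libraries.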

How the data were processed

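The authors enriched mRNA from spinal cord tissue by poly(A) capture and read the fragments in pairs, trimming them with fastp 0.23.2. HISAT2 2.2.1 and the build mRatBN7.2 are named in the submitters' processing notes. The counting program and its use of strand are not given in the sources used here. The deposited counts are whole reads per gene without normalization. FPKM are by definition counts scaled by gene length and library total, but the deposited FPKM of Il21r did not follow its counts. Counts were compared in R 4.3.3 with edgeR 4.0.16 (TMM, default filter on low counts, quasi-likelihood test) over the 6 libraries of each comparison, and genes were called at |log2FC|>1 and an adjusted p (Benjamini-Hochberg, all genes) under 0.05. DESeq2, which the study used at the same thresholds, was the first alternative (here version 1.42.0). SE is |log2FC| divided by the square root of F, and CPM were TMM-normalized over all 9 libraries. FPKM were tested with limma 3.58.1 as log2(FPKM + 1) and log2(FPKM + 0.1), which understates changes of low genes. The scripts were tested on simulated data. Members, gene lists and tests were chosen with earlier results of these data known. Values in every library are given for members called in any comparison, for those at an unadjusted p under 0.05 and |log2FC| over 1 in SCI + SCS against SCI, and for some of a fixed list of 13 genes. Of that list, Il2rg was not analysed here. Groups and replicate numbers came from the labels. No batches were told apart, so batch effects were not examined. Each library was 1 rat. Reads were amplified by PCR and carried no molecular identifiers, so the floor of 3 counts covers counting error only. The genes Il11ra1, Il13ra1-ps1, Il1rapl1, Il1rapl2, Il1rl2, Il2, Il27, Il31 and Il34 overlap another row, and without strand their reads could be shared.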

Additional observations from a re-analysis of the deposited data

How the results depend on the processing

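In SCI against Sham, the number of members called was 21 in edgeR, 15 to 22 with 1 library left out, 24 with the replicate block, 23 with DESeq2 and 7 with log2(FPKM + 1) in limma, where the pseudocount shrinks low genes (21 with log2(FPKM + 0.1)). For the partner and downstream genes it was 11, with 9 to 13 when 1 library was left out, 7 with log2(FPKM + 1) and 22 without a fold threshold. In SCI + SCS against SCI, 0 members were called in edgeR, 0 to 1 with 1 library left out, 3 with DESeq2 and 3 at an unadjusted p, and 0 with the replicate block. For the partner genes these were 0, 0, 1, 1 and 0. In SCI + SCS against Sham, 4 members were called, 2 to 8 with 1 library left out, 0 with the replicate block (adjusted p = 0.0589 for Il18bp, 0.0596 for Il10ra, 0.0714 for Il21r and 0.101 for Il1r2 in edgeR), 2 with log2(FPKM + 1) and 14 without a fold threshold. For the partner genes it was 5, with 4 to 9 when 1 library was left out, 3 with the replicate block and 14 without a fold threshold. The members called in a comparison kept their direction in it under every alternative run, whereas log2FCs that were not called could change sign, as for Il18r1 in SCI against Sham (-0.05 without SCI 1) and Il33 in SCI + SCS against SCI (0.01 without SCI 2). The main fits did not take replicate numbers to pair the rats. The correlations of same-numbered libraries were 0.243, -0.056 and 0.2 for SCI and Sham, -0.165, 0.002 and -0.205 for SCI + SCS and SCI, and -0.328, 0.022 and -0.314 for SCI + SCS and Sham. In SCI against Sham, 2 of the 3 SCI libraries correlated best with the Sham library of the same number, against 0 of 3 in each other comparison. With 3 libraries per group, these values cannot show whether the rats were paired. Low counts limited what could be seen for Il6 (at most 27 per library) and for the ligands without counts in all libraries.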
